A study of Mus musculus with 2 samples.

Results

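The 8 genes described here encode the cytokines of the interleukin-6 and interleukin-12 families that macrophages and dendritic cells are known for: Il6, Lif and Osm on one side, and the subunit genes Il12a, Il12b, Il23a, Il27 and Ebi3 on the other. The rule lists them by name, and all 8 were found among the 55536 annotated gene rows. Ribosomal RNA-depleted total RNA was sequenced from nuclei of bone marrow-derived macrophages of C57BL/6J mice, in 1 group of 2 libraries. All cells had received 100 ng/ml Lipid A, the endotoxin component that activates the receptor TLR4, for 12 h, had been kept without it for 12 h, and had then been given 100 ng/ml Lipid A again for 60 min. The labels name the fraction nucleoplasmic in one field and nuclear in others, and record no sex or age. They call the libraries biological replicates but give both the same donor identifier. No unstimulated or singly stimulated cells were analysed here, so the values are levels in restimulated cells and not responses. Differences between libraries have no test, and the spread between them may be technical, since nothing states that the cultures came from separate animals.

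The annotated genes of replicate 1, made from 1 µg of RNA, received 23630328 expected counts, and those of replicate 2, made from 500 ng, 15687634. All 8 macrophage marker genes reached 10 TPM (a level divided by transcript length and scaled to the same total in each library) in both libraries, with summed levels of 4358 TPM (replicate 1) and 2615 TPM (replicate 2). None of the 7 dendritic cell markers reached 1 TPM in both libraries. Their levels summed to 3.48 TPM for replicate 1, against 1.65 TPM for replicate 2, and Cd209a had no counts. Ccr7 was the highest of them, at 1.8 TPM and 0.65 TPM. None of the 6 neutrophil markers (summed level 0.95 TPM and 0.53 TPM), the 6 T, B and NK cell markers (0.03 TPM and 0.10 TPM), the 4 mast cell and basophil markers (0.77 TPM and 0.66 TPM) or the 5 stromal and endothelial markers (2.06 TPM and 1.03 TPM) reached 1 TPM in both. Pecam1, of the stromal and endothelial list, had 1.48 TPM and 0.53 TPM. A separate set of transcript estimates deposited for the same libraries put it above 1 TPM in both, at 1.59 TPM and 5.29 TPM. Within the lymphocyte list Cd3e, Cd3g and Klrb1c had no counts in either library. In bulk RNA, fewer cells of a type and less RNA per cell cannot be told apart.

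Cytokines of the IL-6 family signal through receptor complexes that contain the shared chain gp130, the product of Il6st. The IL-12 family is built from pairs of chains: p40 (Il12b) joins p35 (Il12a) to make IL-12 or p19 (Il23a) to make IL-23, while EBI3 joins p28 (Il27) to make IL-27 or p35 to make IL-35. Both families act on JAK kinases and STAT transcription factors. In macrophages these genes are classical targets of TLR4 and NF-kB, and several of them carry AU-rich elements in their mRNA that shorten its life.

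At or above 1 TPM in both libraries were 5 of the 8 genes, beside 39.9% of 22028 annotated protein-coding genes. These were Ebi3, Il27, Il12b, Il6 and Osm, and all of them except Osm exceeded 10 TPM in each. By the second quantifier, a separate set of transcript estimates deposited for the same libraries, Il12b (5.92 TPM) and Il6 (5.45 TPM) were below 10 TPM in replicate 1. Il23a, Il12a and Lif lay below that level in at least one library. Each member stood on one side of 1 TPM in both libraries except Il23a.

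**Figure D1:**
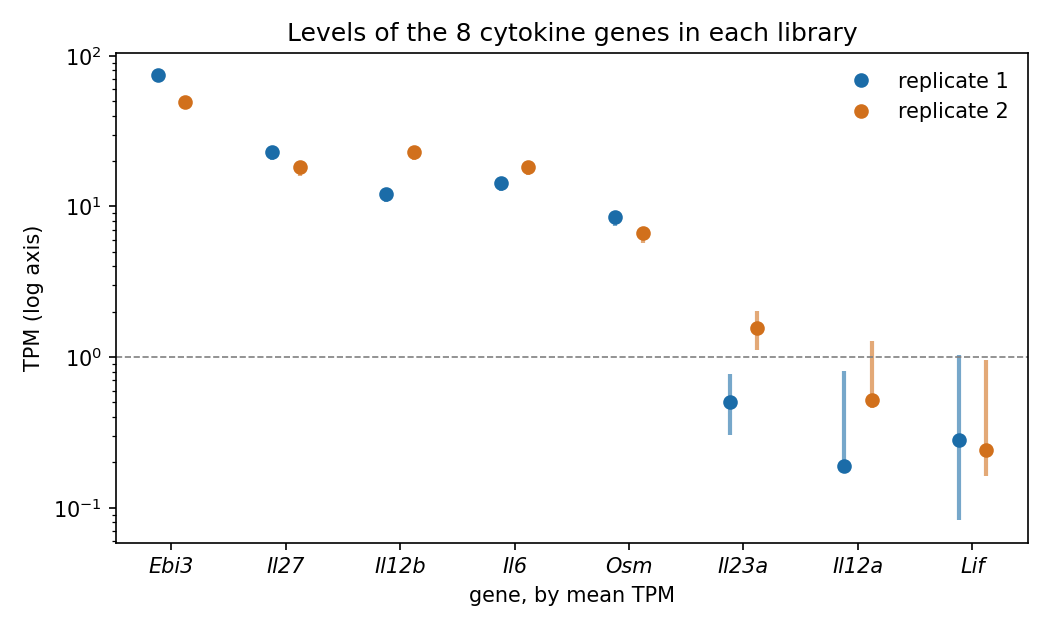
Level of each of the 8 cytokine genes in TPM (log axis) in both libraries, ordered by mean; points are single libraries and bars the TPM interval deposited with each value, whose level is not stated. Ebi3 stands highest at 74.2 and 49.3 TPM, Il27, Il12b and Il6 overlap, and Il12a and Lif lie under the dashed line at 1 TPM in both libraries.

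Ebi3 (ENSMUSG00000003206.7, mm10 chromosome 17, 55952640 to 55957022, plus strand), which encodes the EBI3 chain of IL-27 and IL-35, had 74.2 TPM in replicate 1, against 49.3 TPM in the other library. Its mean of 61.7 ± 17.6 TPM (SD, n = 2) placed it at rank 683 of the 22028 protein-coding genes. Il27 (ENSMUSG00000044701.5, chromosome 7, 126589010 to 126594941, minus strand), the gene of the p28 chain, had 23.1 TPM in replicate 1, against 18.4 TPM in the other library, a mean of 20.8 ± 3.33 TPM (SD, n = 2). Both libraries of Ebi3 lay above both of Il27, with a 2.97-fold ratio of the means. Per length, Ebi3 was 3.21-fold the level of Il27 in replicate 1 and 2.68-fold in replicate 2, a log2 ratio of 1.55 ± 0.19 (SD, n = 2; computed on TPM plus 0.1, as are the other log2 ratios between genes). The second quantifier gave a smaller gap of 0.55 and 0.46 on that log2 scale.

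Both genes share bases with a gene on the opposite strand. An antisense gene, Gm16712, overlaps 270 of the 1154 exonic bases of Ebi3, 23.4% of them, and had 39.1 TPM and 44.7 TPM. The protein-coding gene Apobr, at 55.0 TPM and 51.2 TPM, overlaps 103 of the 1021 exonic bases of Il27, 10.1% of them, from the opposite strand. The sources do not state whether counting used strand, so reads from the overlapping stretches cannot be assigned to one gene or the other. The second quantifier placed 2.71 times as many counts on Il27 as the gene table did in replicate 1 and 3.40 times as many in replicate 2, where the ratio over all annotated genes was 1.35 and 1.72.

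Il12b (ENSMUSG00000004296.14, chromosome 11, 44400063 to 44414033, plus strand), the p40 gene shared by IL-12 and IL-23, had 12.1 TPM in replicate 1, against 22.8 TPM in the other library, with a mean of 17.5 ± 7.57 TPM (SD, n = 2). Its libraries lay on either side of both libraries of Il6, and its higher library lay between those of Il27, so Il12b was not separate from either gene. The lower library of Il27, at 18.41 TPM, lay just above the higher one of Il6, at 18.38 TPM. Il23a (ENSMUSG00000025383.2, chromosome 10, 128296139 to 128298752, minus strand), the p19 gene, had 0.50 TPM in replicate 1 on 17 expected counts and 1.56 TPM in replicate 2 on 43. The mean was 1.03 ± 0.75 TPM (SD, n = 2). Il12a (ENSMUSG00000027776.12, chromosome 3, 68690644 to 68698547, plus strand), the p35 gene, had 0.19 TPM and 0.52 TPM on 5 and 13 expected counts. In replicate 1 that value lies below its own deposited interval of 0.21 to 0.80 TPM, so its level rests on very few reads.

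Within each library the p40 gene was far above both of its partners. Il12b was 63.8-fold the level of Il12a in replicate 1 and 43.9-fold in replicate 2, a log2 ratio of 5.30 ± 0.13 (SD, n = 2), and the second quantifier gave 5.26 and 5.23. Against Il23a the ratio was 24.2-fold in replicate 1 and 14.6-fold in replicate 2, with a log2 ratio of 4.07 ± 0.40 (SD, n = 2). The second quantifier put this ratio lower, at 2.81 and 3.06, and it assigned Il23a 111 and 188 counts. Ebi3 exceeded Il12a, its partner in IL-35, by 8.0 (replicate 1) and 6.32 (replicate 2) on the log2 scale. All of these pairs had 1 direction in both libraries and by both quantifiers, while the sizes with Il12a depend on a handful of its reads.

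Il6 (ENSMUSG00000025746.11, chromosome 5, 30013114 to 30019981, plus strand), the founding member of its family, had 14.25 TPM in replicate 1, against 18.4 TPM in the other library, a mean of 16.3 ± 2.92 TPM (SD, n = 2). Osm (ENSMUSG00000058755.3, chromosome 11, 4236420 to 4241026, plus strand), the gene of oncostatin M, had 8.49 TPM and 6.64 TPM. Both libraries of Il6 lay above both of Osm, with a 2.16-fold ratio of the means. Lif (ENSMUSG00000034394.14, chromosome 11, 4257557 to 4272514, plus strand), the gene of leukemia inhibitory factor, starts 16530 bases beyond the end of Osm on the same strand. It had 0.28 TPM and 0.24 TPM on 8 and 20 expected counts. Despite their closeness on the chromosome, Lif was at 0.033 of the level of Osm in replicate 1 and 0.036 in replicate 2, a log2 ratio of -4.40 ± 0.13 (SD, n = 2). The second quantifier gave -2.82 and -2.20, with 80.8 and 131.6 counts on Lif. In replicate 1, 0.21 of the 0.28 TPM of Lif came from 1 expected count on the 390-base form Lif-203. Lif had 8 and 20 expected counts where Osm had 448 and 322, so the libraries were less alike by counts than by TPM. The small SD of the TPM ratio thus rests on very few reads.

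In the order of the means, Ebi3 was separate from Il27, Il6 from Osm, and Osm from Il23a, the last by 7.34-fold. The neighbours Il27 and Il12b, Il12b and Il6, Il23a and Il12a, and Il12a and Lif were not separate, since libraries of one fell among libraries of the other. By the second quantifier the first 6 genes came in the same order and Lif stood above Il12a.

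The transcript tables showed an uneven use of annotated forms. Il6 has 4 annotated transcripts, and most of its signal was placed on Il6-203, which is 2343 bases long and keeps intron 4, the last intron of the reference form Il6-201. Il6-203 had 10.4 TPM in replicate 1 (deposited interval 9.02 to 10.8) and 13.0 TPM in replicate 2 (11.5 to 13.5). That was 72.8% of the TPM of Il6 in replicate 1 and 70.9% in replicate 2, and the second quantifier gave 55.9% and 64.8%. The fully spliced reference Il6-201 had 2.22 TPM and 1.17 TPM, which is 15.6% and 6.37% of the gene, and Il6-204 held a further 9.76% and 21.7%. The intervals of Il6-203 and Il6-201 did not overlap in either library. Il6-203 is annotated as coding, with 624 coding bases where Il6-201 has 633, but the coding sequences end differently. Counted from the gene's start, that of Il6-203 runs past the exon end at base 5041 and stops inside intron 4, at base 5197. It lacks the last coding stretch of Il6-201, at bases 6267 to 6432.

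The kept intron spans chromosome 5, 30018155 to 30019380, a length of 1226 bases. Its edges on mm10 are shown because the reading of Il6 in these libraries turns on whether this intron is present. Capitals mark the first and last pairs of bases of the intron, and 15 bases stand on each side of the cut.
Il6 intron 4, start (chr5:30018140-30018169, plus strand): atcttcaaccaagagGTgagtgcttcccca
Il6 intron 4, end (chr5:30019366-30019395, plus strand): tttttcctcctttAGgtaaaagatttacat
The intron has the usual GT and AG ends. In nuclear RNA, an unspliced precursor and a transcript that keeps this intron alone cannot be told apart from these tables, because the annotation holds no unspliced form of Il6.

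**Figure D2:**
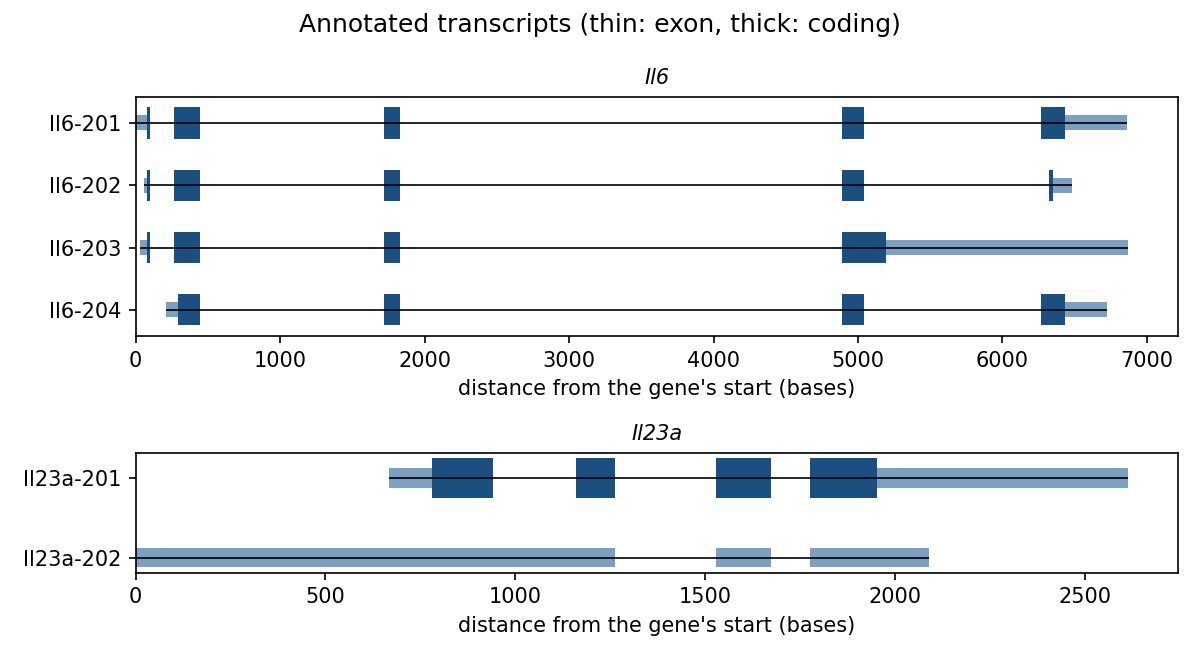
Annotated transcripts of Il6 and Il23a by distance in bases from the gene's start, with thin boxes for exons and thick boxes for coding sequence; both genes are drawn in the direction of transcription. Il6-203 has a single long last exon where the other forms splice out intron 4. Il23a-202 fuses the first exon to the second across intron 1, and it also begins farther upstream and ends sooner than Il23a-201.

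Transcripts that keep an intron of the reference form are annotated for 3 members, Il6, Il23a and Il12a. Only Il6 held 50% or more of its TPM on such transcripts in both libraries, beside 4.61% of the 3080 protein-coding genes of 1 TPM or more that have one. The median share over those genes was 13.0% in replicate 1 and 14.95% in replicate 2. By the second quantifier Il23a passed as well, beside 5.03% of the same genes. For Il23a, the retained-intron form Il23a-202 held 40.8% of TPM in replicate 1 and 6.41% in replicate 2 by the first quantifier, on 8.13 and 3.56 expected counts, but 90.5% and 74.7% by the second, on 102.6 and 149.0 counts. The form of Il23a that these nuclei held is therefore not settled by the tables.

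Il23a-202 keeps intron 1, which is 219 bases at chromosome 10, 128297592 to 128297810. The forms also differ at their ends. Il23a-202 begins at the gene's start and ends at base 2091 from it, where Il23a-201 begins at base 668 and ends at base 2614. Where along these forms the counts of each quantifier lie is not known here. The edges of intron 1 are shown on the minus strand.
Il23a intron 1, start (chr10:128297796-128297825, minus strand): ccagcgggacatatgGTaagtgtcagctcc
Il23a intron 1, end (chr10:128297577-128297606, minus strand): ctccctccattacAGaatctactaagagaa
The capitals again mark the ends of the intron. Il12a, at 5 and 13 counts, had its signal on the coding Il12a-202 in replicate 1 (89.5%), and in replicate 2 it was divided between Il12a-202 (40.4%) and the retained-intron form Il12a-204 (59.6%, on 7.81 expected counts).

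**Figure D3:**
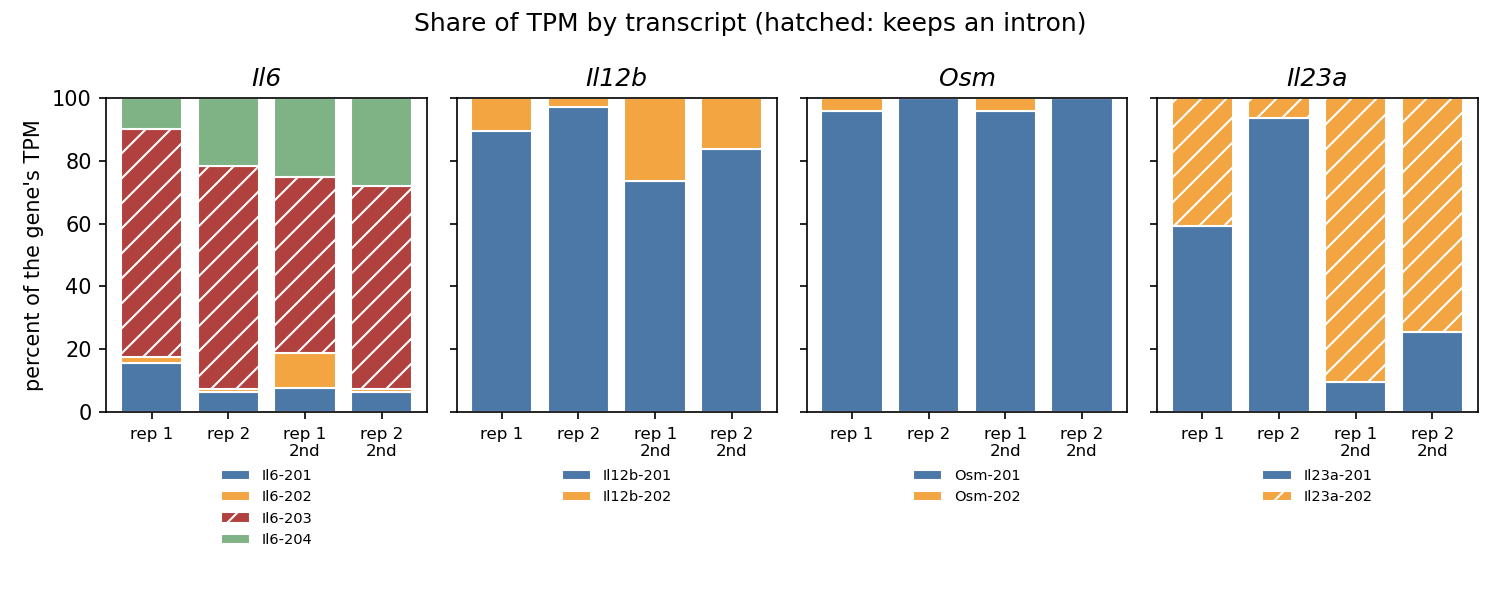
Percent of each gene's TPM placed on each annotated transcript of Il6, Il12b, Osm and Il23a, for both libraries by the first quantifier and again by the second (2nd); hatched segments keep an intron. The hatched Il6-203 fills 55.9% to 72.8% of every Il6 bar, while the hatched Il23a-202 runs from 6.41% to 90.5%.

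The other members have no annotated transcript that keeps an intron of the reference form. Ebi3 and Il27 each have a single annotated transcript. Il12b-201 held 89.4% of the TPM of Il12b in replicate 1 and 97.2% in replicate 2, and Il12b-202, which has the same 1005 coding bases, held the rest. By the second quantifier the share of Il12b-201 was lower, at 73.4% and 83.7%, with 26.6% and 16.3% on Il12b-202. Osm-201 held 96.0% and 100% of Osm. The counts of Lif lay on Lif-201, with 7 in replicate 1 and 20 in replicate 2, and the principal form Lif-202, which begins at the upstream first exon, had 0 counts in both libraries and by both quantifiers. In replicate 1 a single expected count on the 390-base Lif-203 made up 75.0% of the TPM of Lif, which shows how strongly one read weighs on a short form.

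The 3′ ends of these mRNAs were searched for AU-rich elements, which are read by decay proteins such as tristetraprolin. The pentamer ATTTA occurred 6 times in the 3′ UTR of Il6 (427 bases), Il12b (797 bases), Osm (1017 bases), Il23a (657 bases) and Il12a (493 bases), 5 times in that of Il27, 7 times in that of Lif (3180 bases) and 1 time in that of Ebi3 (245 bases), each taken from the gene's reference transcript. Among mouse 3′ UTRs within 10% of the same length, 99.8% had fewer pentamers than Il6, 99.9% fewer than Il27, 97.8% fewer than Il12b, 95.6% fewer than Osm, 98.6% fewer than Il23a and 99.8% fewer than Il12a. For Ebi3 the share was 67.6% and for Lif 60.3%. Ebi3, the member with the highest level, had the fewest pentamers, and the 7 of Lif compare with a median of 5 in 3′ UTRs of its length.

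The longer nonamer TTATTTATT, searched on the transcript strand, was present in 4 members, and each match is shown with 10 bases on each side, capitals marking the nonamer and the number giving its first base after the stop codon. These windows are short stretches of the GENCODE M21 transcripts.
Il27, base 199: tcttggatatTTATTTATTtttaagaaat
Il27, base 221: aagaaatggtTTATTTATTgtttcactct
Il23a, base 594: tagatgatggTTATTTATTctatttataa
Il12a, base 396: ctatttatatTTATTTATTttctatttat
Lif, base 2715: aaaggggcctTTATTTATTatttaaaact
Lif, base 3078: cagattatttTTATTTATTcaatgtcata
The nonamer was found in 1.89% of 3′ UTRs of a length like that of Il27, 3.34% for Il23a, 2.65% for Il12a and 12.4% for Lif. Each nonamer contains ATTTA, so the searches overlap. A match describes the letters only, and RNA half-life was not measured in these libraries. Il6, Il12b, Osm and Ebi3 had no match to these 9 letters.

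RefSeq promoter windows on GRCm38.p6 were at hand for 5 of the 8 members, Ebi3, Il6, Il12b, Il12a and Lif. The windows of the 3 members of 10 TPM or more are shown as the regulatory sequence next to the start site, 250 bases long and ending at the base before the RefSeq start. Capitals mark matches to an NF-kB motif, to TGANTCA (the AP-1 motif) or to TTNNGCAA (a C/EBP motif), each searched on both strands, and no matches overlapped in these windows.
Ebi3 (chr17:55952373-55952622, plus strand): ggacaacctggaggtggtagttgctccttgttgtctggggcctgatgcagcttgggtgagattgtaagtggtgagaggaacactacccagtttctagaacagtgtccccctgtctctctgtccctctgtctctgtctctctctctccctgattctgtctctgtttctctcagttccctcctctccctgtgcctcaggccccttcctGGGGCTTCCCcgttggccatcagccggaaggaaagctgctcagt
Il6 (chr5:30012864-30013113, plus strand): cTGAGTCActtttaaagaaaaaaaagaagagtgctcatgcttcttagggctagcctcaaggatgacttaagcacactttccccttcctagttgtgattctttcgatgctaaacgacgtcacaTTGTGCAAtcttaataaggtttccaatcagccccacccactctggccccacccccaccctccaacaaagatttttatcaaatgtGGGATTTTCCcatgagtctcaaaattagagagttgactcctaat
Il12b (chr11:44399813-44400062, plus strand): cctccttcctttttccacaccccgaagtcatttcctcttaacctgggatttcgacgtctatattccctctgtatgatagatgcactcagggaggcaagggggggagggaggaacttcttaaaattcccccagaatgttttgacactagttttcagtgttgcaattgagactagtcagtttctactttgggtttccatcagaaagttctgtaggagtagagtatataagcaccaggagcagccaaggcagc
The NF-kB motif occurred in Ebi3 as GGGGCTTCCC, in Il6 as GGGATTTTCC and in Lif as GGGACGCCCC, 3 of the 5 windows, beside 7.25% of 32851 promoter windows. In both Ebi3 and Il6 the match lay at bases -44 to -35 from the start. TGANTCA was present in Il6 and Lif, beside 6.75% of windows, and TTNNGCAA in Il6 alone among the 5, beside 9.56%. The windows of Il12b and Il12a held no exact match to these motifs. Nor did they match a core of the interferon-stimulated response element (2.98% of windows) or TATAAA (12.4%). Sites that depart from the motifs were not searched for, so a window without a match may still hold such sites. Il12a had 2 promoter windows, and only that at chromosome 3, 68691174 to 68691423, is covered here. The motifs were chosen with the sequences in view, and no binding was measured. The window of Lif lies at the start of Lif-202, the form with 0 counts.

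The libraries differed for some members. For this comparison expected counts were scaled by TMM (a library scaling that centres the typical gene) and given as the log2 ratio of replicate 2 over replicate 1, because the median protein-coding gene encoded in the nucleus was 0.46 lower in replicate 2 on the log2 TPM scale. Of the 7 members with a mean of 10 or more counts, 3 were over 2-fold higher in replicate 2, beside 3.84% of 14038 genes, and none was over 2-fold higher in replicate 1, beside 3.82% (7.66% of genes in either direction). Il12b had a log2 ratio of 1.35, on 530 and 887 expected counts, and the second quantifier gave 1.06. Il23a had 1.81 and Lif 1.66, both from few counts. The TPM of Lif was 0.28 in replicate 1 and 0.24 in replicate 2, its effective length in the deposited tables was 1083 and 3579 bases, and its log2 ratio on centred TPM was 0.30. With the second quantifier the ratios of Il23a and Lif came to 0.86 and 0.80. By the second quantifier, the members over 2-fold higher in replicate 2 were Il12b and Il12a (1.90), 2 of the 8, beside 7.35% of 22331 genes. Il6 stood at 0.78, while Ebi3 (-0.15), Il27 (0.11) and Osm (0.14) lay near 0. The median of the 7 was 0.78, where the median of all genes was 0.00, and the biological coefficient of variation common to all genes was 22.7%. The deposited intervals of the unscaled TPM were separate between the libraries for 6 of the same 7 members, all but Lif, beside 38.2% of the 14038 genes. Those of Il12a, which is outside this set, were not separate. RNA input and depth differ between the same 2 libraries, and their part in these ratios was not tested.

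**Figure D4:**
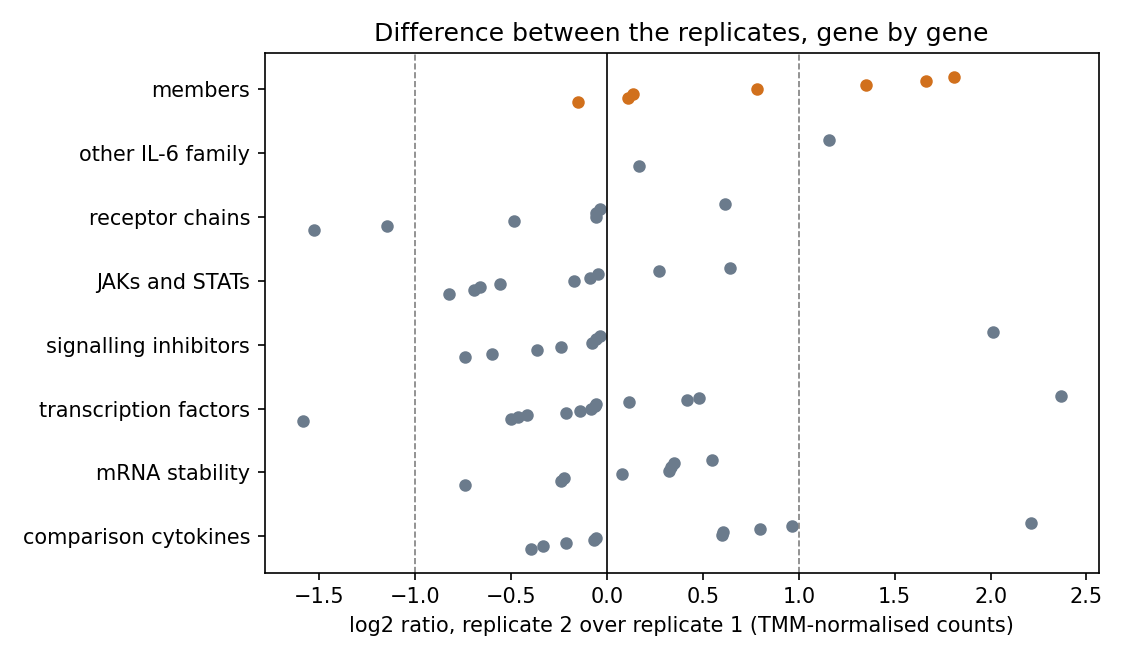
Log2 ratio of replicate 2 over replicate 1 (TMM-scaled expected counts) for the members and the other lists, 1 point a gene with a mean of 10 or more counts; dashed lines mark 2-fold and vertical offsets only separate points. Il12b, Lif and Il23a lie beyond 2-fold on the right, and 2 receptor chain genes lie beyond it on the left.

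Of 6 other cytokines of the IL-6 family, only Clcf1, the gene of cardiotrophin-like cytokine, reached 1 TPM in both libraries, with 2.07 TPM and 2.67 TPM. Cntf had 0.53 TPM and 0.44 TPM. Ctf1, Il11 and Il31 were below 0.1 TPM in both, and Il11 and Il31 had 0 expected counts. Both Il6 and Osm lay above all 6 in both libraries.

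Of the 10 receptor chain genes, 6 had 1 TPM or more in each library and 3 were below 0.1 TPM in both. The shared chain gp130 (Il6st) had 23.4 TPM and 16.8 TPM, and Il6ra, the specific chain for IL-6, had 13.2 TPM and 7.26 TPM. Il11ra1, the IL-11 receptor chain, had 13.95 TPM and 13.6 TPM. Lifr had 0.60 TPM and 0.62 TPM. Osmr, the specific chain for oncostatin M, had 0 expected counts in both libraries, where a count of 0 still permits 0.039 TPM (replicate 1) or 0.043 TPM (replicate 2) by counting error alone, and the second quantifier placed 0.10 TPM and 0.26 TPM on it. Cntfr had 0 in both tables.

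Among receptor chains of the IL-12 family, Il12rb1 and Il23r were higher in replicate 1. Il12rb1, the chain that binds p40, had 38.7 TPM in replicate 1, against 9.72 TPM in the other library, a log2 ratio of -1.53 after scaling. Il23r, its partner in the IL-23 receptor, had 6.53 TPM and 2.14 TPM, a log2 ratio of -1.15, and these 2 were the only receptor chains of 7 tested that were over 2-fold apart. Il12rb2, the IL-12 partner, had 3.21 TPM and 2.24 TPM, and its log2 ratio was -0.06. Il27ra had 0.08 TPM and 0.07 TPM on 5 and 4 counts, so the receptor chain specific to IL-27 was near 0 in cells with both IL-27 subunit genes above 10 TPM. Markers of dendritic cells, which also carry such receptors, summed to 3.48 TPM for replicate 1 and to 1.65 TPM for the other library, and their part in the result was not tested.

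**Figure D5:**
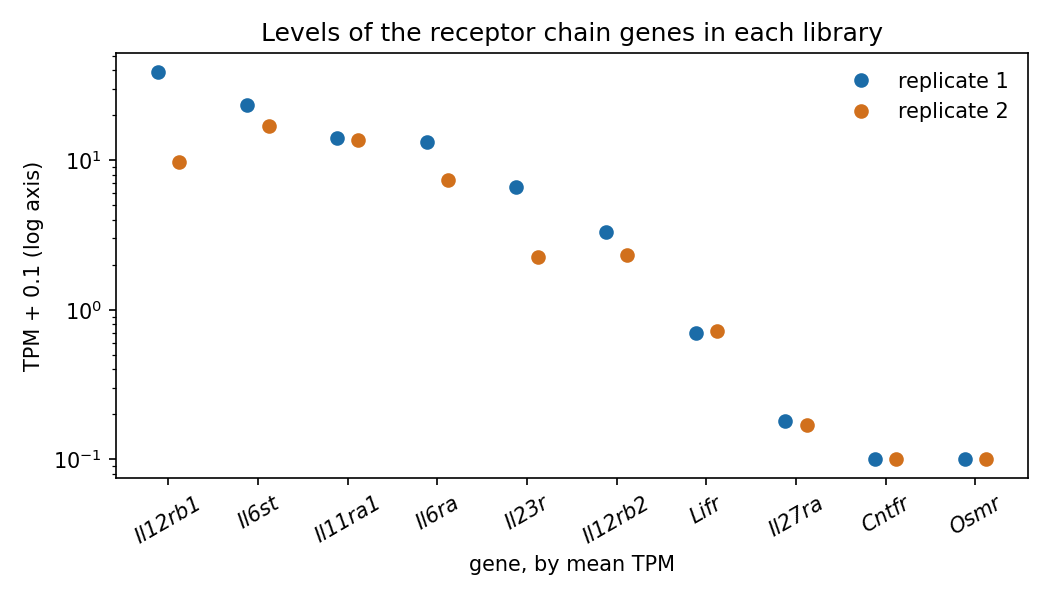
Level of the 10 receptor chain genes in TPM plus 0.1 (log axis), ordered by mean, with 1 point a library. Il12rb1 (38.7 and 9.72 TPM) and Il23r (6.53 and 2.14 TPM) show the widest gaps between the libraries among the genes of 1 TPM or more, and Cntfr and Osmr sit at the bottom with 0 TPM.

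Downstream of these receptors, 8 of 9 JAK and STAT genes reached 1 TPM in both libraries, and none of the 9 was over 2-fold apart on TMM-scaled counts. The kinase genes Tyk2 (63.5 and 33.0 TPM), Jak2 (51.1 and 44.5 TPM) and Jak1 (40.8 and 28.9 TPM) were measured well above 1 TPM in both libraries. Stat4, the usual STAT of IL-12, was the exception to the count at 1.20 TPM and 0.82 TPM. Of 8 genes listed as regulators, mainly inhibitors, of gp130 and JAK-STAT signalling, 7 reached 1 TPM in both. Socs3, whose product blocks gp130, had 188 TPM and 133 TPM, and Adam17, the protease that sheds the IL-6 receptor, had 117 TPM and 66.6 TPM. The phosphatase gene Ptpn6 had 64.9 TPM and 21.6 TPM, and Pias1 14.2 TPM and 10.1 TPM. Cish fell short in replicate 1 with 0.70 TPM, against 2.64 TPM in replicate 2. It was the only one of these 8 over 2-fold apart on TMM-scaled counts, where Ptpn6 had a log2 ratio of -0.74.

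Of 13 transcription factors known to act at Il6 and Il12b, 12 had 1 TPM or more in both libraries and 10 of these exceeded 10 TPM. The highest were Irf1 at 454 TPM and 226 TPM, Nfkbiz, the gene of the co-activator IκBζ, at 311 TPM and 245 TPM, Nfkb1 at 138 TPM and 132 TPM, and Atf3, a repressor of these cytokine genes, at 110 TPM and 58.6 TPM. On the same scale a ratio over 2-fold was seen for Fosb (2.37, on 20 and 74 counts) and Cebpb (-1.59), in opposite directions. All 8 regulators of Il6 mRNA stability reached 1 TPM in both libraries and none was over 2-fold apart on TMM-scaled counts, where Arid5a had a log2 ratio of -0.74. Zfp36, the gene of tristetraprolin, had 319 TPM and 199 TPM, Zfp36l1 had 54.6 TPM and 34.6 TPM, Zc3h12a, the gene of the endonuclease Regnase-1, had 44.2 TPM and 27.5 TPM, and Arid5a, which protects Il6 mRNA, had 27.99 TPM and 12.75 TPM.

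Among 11 cytokine genes outside these families, 9 were at 10 TPM or more in each library. The level of Tnf was 1424 TPM and 999 TPM, Il1a had 251 TPM and 320 TPM, Il1b had 242 TPM and 256 TPM, and Csf1, the macrophage growth factor gene, had 79.6 TPM and 105 TPM. In both libraries these 4 lay above every one of the 8 members, as did Tgfb1 (80.47 and 54.55 TPM). Ebi3 in turn lay above Il15 (64.72 and 36.29 TPM), Il18 (41.04 and 24.09 TPM), Il10 (24.95 and 27.92 TPM), Ifnb1 (24.73 and 15.85 TPM), Csf2 and Csf3 in both libraries. By the second quantifier Il15 lay above Ebi3 instead, at 99.7 TPM and 102 TPM against 24.6 TPM and 31.2 TPM. Csf2 and Csf3 were the comparison cytokines under 1 TPM in at least one library, and Csf2, at 0.64 TPM and 2.62 TPM, was the only one of the 10 tested on TMM-scaled counts that was over 2-fold apart. Csf3, with 14 and 0 counts, was not tested. Stat4, Cish, Fosb, Cebpb, Csf2, Csf3, Il10, Il15, Il18, Tgfb1, Ifnb1, Il31 and Klrb1c were named after their values were seen.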

How the data were processed

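Nuclear total RNA depleted of ribosomal RNA was measured in 2 libraries of 1 group. Readme files that the authors deposited name mm10 as the genome and GENCODE M21 as the annotation. No aligner, tool version or strand setting is given in the sources used here. The gene and transcript tables have the RSEM format per the file headers, with deposited expected counts, deposited TPM, a posterior mean TPM, TPM intervals of unstated level, and a transcript share in percent that the authors deposited. The second quantifier is the deposited transcript table in kallisto format, summed per gene here.

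The members and lists, and the motifs, were chosen with earlier results of these data known. Symbols, exons and introns come from the M21 annotation (GRCm38), transcript sequences from GENCODE M21 and promoters from RefSeq (GRCm38.p6). The 55536 gene rows used are those found in the annotation (55450 also in the second quantifier), and rows outside it were left out. Log2 ratios between genes used TPM plus 0.1. For ratios between replicates, expected counts were rounded, genes with a mean under 10 counts were left out, and TMM scaling with a prior count of 2 was applied in edgeR 4.0.16 (R 4.3.3). An intercept-only fit gave the common dispersion. DESeq2 1.42.0 gave alternative size factors. With 1 group there is no contrast, so no p-value was computed. A count of 0 allows 3 counts, which covers counting error only. Expected counts on annotated genes totalled 23630328 in replicate 1 and 15687634 in replicate 2. Over all rows they totalled 23914018 and 15721469. Named were all members and receptor chains, and in other lists the 4 highest by mean TPM plus at most 3 that both libraries put under 0.1 TPM. Some genes that this rule names are not reported here. Transcripts named held 5% or more of a gene's TPM in a library. Alternatives were other pseudocounts, floors, scalings and filters, the second quantifier, the posterior mean, undivided counts and each library alone. Other steps used Python 3.11.15, numpy 2.4.6 and pandas 2.3.3, and the ratio step was tested on simulated data. Signal tracks were not used here.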

Additional observations from a re-analysis of the deposited data

How the results depend on the processing

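The count of members at 1 TPM or more in both libraries was 5 and ranged from 5 to 6 over the other floors, the second quantifier, the posterior mean, rescaled TPM and each library alone. No ratio between members changed sign under any alternative run, but the sizes did change. With a pseudocount of 1 TPM the log2 ratios came to 3.72 for Il12b over Il12a, 3.17 for Il12b over Il23a, 5.51 for Ebi3 over Il12a and -2.76 for Lif over Osm, and with 0.01 TPM to 5.68 for Il12b over Il12a and -4.80 for Lif over Osm. With the second quantifier they were 2.93 for Il12b over Il23a, 0.50 for Ebi3 over Il27 and -2.51 for Lif over Osm. The posterior mean gave 4.42 for Il12b over Il12a and -3.67 for Lif over Osm. Counts not divided by length gave 6.23 for Il12b over Il12a, 4.61 for Il12b over Il23a, 1.77 for Ebi3 over Il27 and -4.79 for Lif over Osm. The count of members over 2-fold apart, 3 as reported, was 1 with TPM not centred and 1 with a minimum mean of 50 counts, where fewer genes are tested. It was 3 with DESeq2 size factors, 2 with centred TPM, 4 with no filter, 2 with the second quantifier and 3 with a prior count of 0.5. Of 43 mean levels in TPM, 32 moved by more than 1 SD with the second quantifier, 39 with rescaled TPM and 11 with the posterior mean, and that of Ebi3 went from 61.7 to 27.9 and 262.8 TPM with the first 2 of these. The log2 ratio of Lif between replicates fell to 0.30 with centred TPM. Chosen after seeing the data, 2 more checks were made: separate neighbours in the order of members, 3 as reported, numbered 4 with the second quantifier and 4 with the posterior mean, and members with 50% or more of TPM on intron-keeping transcripts, 1 as reported, numbered 2 with the second quantifier. The cause of these changes was not tested. No paired analysis was possible because there is 1 group. Depth limits Il12a, Lif and Il23a, with 5 to 43 expected counts a library.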
